A study of Homo sapiens with 6 samples.

Results

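The genes described here encode the digestive enzymes of the lysosome, its membrane proteins, the V-ATPase that acidifies it and a pair of transcription factors that control its genes. They were chosen by name from the deposited gene table of SW480 cells, which held 20289 genes. A row was taken if its symbol was one of 26 listed names (17 hydrolases, the cofactor PSAP, 6 membrane proteins, TFEB and TFE3) or began with ATP6V or ATP6AP. The rule found all 26 listed genes and 26 rows of the pump, 52 genes in all. It reads symbols and no measured value, but the members were chosen with earlier results of these data known. Of the 52, 48 passed the filter on low counts and were tested.

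The lysosome is the acidic compartment in which cells break down proteins, lipids, sugars and glycoproteins with hydrolases that work at low pH. Protons are pumped in by the V-ATPase, a rotary machine of a cytosolic V1 sector, which hydrolyses ATP, and a membrane-embedded V0 sector, through which protons pass. TFEB and TFE3 are basic helix-loop-helix factors that are held in the cytosol when mTORC1 is active on the lysosome and that, in the nucleus, bind an E-box-type element in promoters of many lysosomal genes. That element is centred on the letters CACGTG.

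SW480 is an established human colon adenocarcinoma line. The 3 LV-NC libraries come from cells labelled as genotype WT, with treatment given as "None / LV-NC", and the 3 MUCP1-FLAG libraries from cells labelled as overexpressing Flag-tagged MUCP1. Both were grown in serum-supplemented L-15 medium, and an mRNA kit was used for the libraries. The labels call the libraries biological replicates and name no clone, passage, day or batch, so a p-value measures only the spread between these libraries, which may be technical. No row of the table has the symbol MUCP1, so the overexpression was not checked here. Of a change in a bulk culture, fewer cells that express a gene and less RNA per cell cannot be told apart.

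Library totals were 17333329 to 23282604 counts, and mitochondrially encoded genes took 5.91% to 6.61% of them. Of 10 epithelial and colon markers, 7 were tested, and the level summed over all 10, in counts scaled to a common library size (CPM), was 6393 to 7070 in LV-NC and 6875 to 7054 CPM in MUCP1-FLAG. CDX1 and LGALS4 were at 0 in every library, and CEACAM5 was at 0 in 5 of 6. Among the tested markers KRT19 was higher (log2 fold change 0.17, adjusted p 0.0322 by edgeR), and CDH1 (−1.06, 3.26e-09), EPCAM (−0.33, 3.51e-05) and VIL1 (−0.40, 0.00731) were lower in MUCP1-FLAG. The part of this marker change in the results below was not tested. The 13 macrophage and blood markers summed to 0.942 to 1.51 CPM in LV-NC and 0.923 to 1.61 CPM in MUCP1-FLAG, with PTPRC and TYROBP at 0 in every library. Fibroblast markers summed to 1.02 to 1.30 and 0.754 to 1.09 CPM and endothelial markers to 2.41 to 3.35 and 2.26 to 4.17 CPM, in the same order. Of 4 markers of HEK293 packaging cells, LIN28B, NEFL and NEFM were at 0 in every library, and GAL alone stood at 35.0 to 41.4 and 32.9 to 40.2 CPM.

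Of the 48 tested genes, 8 were higher and 3 were lower in the MUCP1-FLAG libraries (edgeR, adjusted p under 0.05). These are 16.7% and 6.25% of the tested genes, beside 8.35% higher and 7.71% lower among all 12920 genes tested. A log2 fold change compares MUCP1-FLAG with LV-NC and stands with its standard error. Hydrolases held 6 of the 8 rises, and the proton pump the other 2, both in V0. The median log2 fold change of the 48 was 0.06, beside −0.00 for all tested genes, and 0.45 was the largest rise and −0.62 the largest fall. In 19 of the 48 (39.6%) the CPM of the 2 groups did not overlap, against 33.1% of all tested genes.

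**Figure D1:**
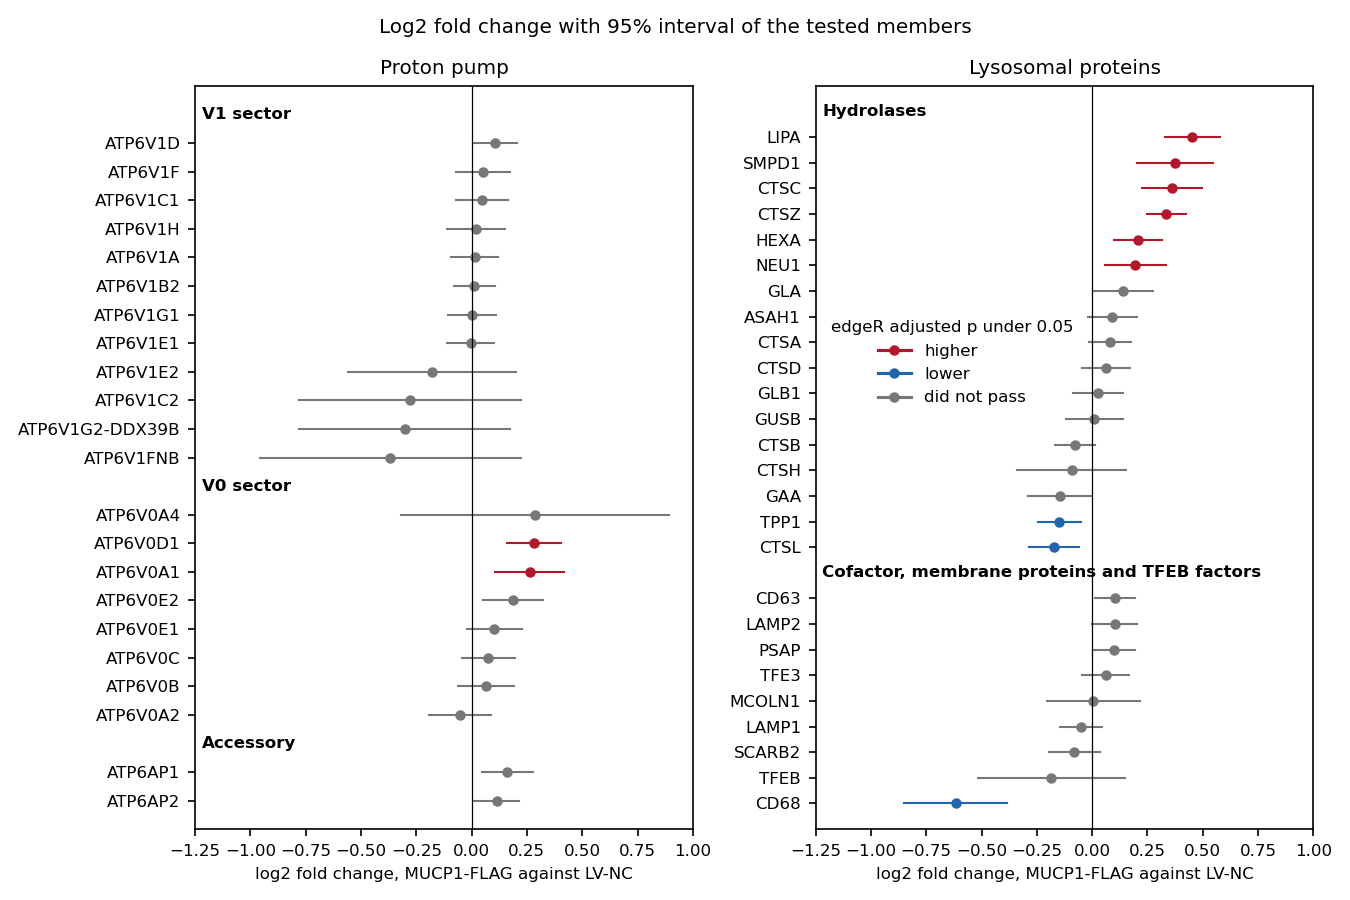
Log2 fold change (MUCP1-FLAG against LV-NC, x axis) of each of the 48 tested genes with its 95% interval as a line, the pump on the left and the other genes on the right. Red points are higher, blue points lower at an edgeR adjusted p under 0.05, and grey points did not pass. The V1 subunits of high level lie close to 0, and the 6 higher hydrolases reach 0.45 (LIPA).

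The hydrolases were split in direction. Of 17, all of them tested, 6 were higher (35.3%, beside 8.35% of all tested genes). A further 2 were lower (11.8%, beside 7.71%), and 9 did not pass. Their median log2 fold change was 0.08, with quartiles of −0.08 and 0.21. In single libraries, the median log2 deviation of the hydrolases from their LV-NC means was 0.07, −0.00 and −0.06 in LV-NC. It was 0.09, 0.06 and 0.08 in MUCP1-FLAG, so the first LV-NC library lay within the MUCP1-FLAG range. Groups did not overlap in 10 of 17 (58.8%, against 33.1% of all tested genes). The median standard error was 0.05 for the hydrolases and 0.08 for all tested genes, so their shares do not stand at equal precision. The group of lipases and ceramidase (LIPA, SMPD1 and ASAH1, 3 genes) included 2 rises and had a median of 0.37. Of the 6 glycosidases 2 passed, both higher, and the median was 0.08. The 8 proteases included 2 rises and 2 falls, with a median of −0.01. These groups hold few genes, and beside the shares of all tested genes their counts do not set any of them apart.

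LIPA, the acid lipase that frees cholesterol and fatty acids from lipoprotein lipids in the lysosome, had the largest rise. It stood at 62.1, 54.3 and 59.4 CPM in LV-NC libraries 1 to 3 and 83.3, 78.3 and 79.0 CPM in MUCP1-FLAG libraries 1 to 3. Every MUCP1-FLAG library was above every LV-NC library. The mean rose from 58.6 ± 3.98 to 80.2 ± 2.70 CPM (SD, n = 3 per group), 1.37-fold, with a log2 fold change of 0.45 ± 0.06 (95% interval 0.33 to 0.58, edgeR adjusted p 1.92e-05). LIPA (ENSG00000107798) lies on GRCh38 at chromosome 10, 89213569 to 89414557 (- strand) in GENCODE 29, the source of all gene positions here, and 1.3% of its exonic bases also belong to IFIT2 on the opposite strand. SMPD1, acid sphingomyelinase, which cleaves sphingomyelin to ceramide, stood at 25.9, 24.4 and 22.5 CPM in LV-NC against 35.0, 31.0 and 28.6 CPM in MUCP1-FLAG. The groups did not overlap, though the lowest MUCP1-FLAG library was the third and the highest LV-NC library the first. Its log2 fold change was 0.37 ± 0.08 (1.30-fold, edgeR adjusted p 0.00345). SMPD1 lies at chromosome 11, 6390431 to 6394998 (+ strand). ASAH1, acid ceramidase, did not pass, with 0.09 ± 0.05 (edgeR adjusted p 0.269). Without LV-NC library 3 it did, at an adjusted p of 0.0459.

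Among the cathepsins and other proteases, the exopeptidases CTSZ and CTSC rose. CTSZ, a carboxypeptidase, stood at 296, 291 and 295 CPM in LV-NC against 363, 372 and 378 CPM in MUCP1-FLAG. Replicates lay close together in both groups, and the mean rose from 294 ± 2.29 to 371 ± 7.45 CPM (SD, n = 3 per group), 1.26-fold. Its log2 fold change was 0.34 ± 0.04 (95% interval 0.25 to 0.42, edgeR adjusted p 1.05e-05). CTSZ (ENSG00000101160) lies at chromosome 20, 58995185 to 59007247 (- strand). CTSC, the dipeptidyl peptidase that activates serine proteases of immune granules, stood at 35.4, 34.5 and 38.3 CPM in LV-NC against 46.9, 46.0 and 46.0 CPM in MUCP1-FLAG. The groups did not overlap, and the log2 fold change was 0.36 ± 0.07 (1.28-fold, edgeR adjusted p 0.000517). CTSC lies at chromosome 11, 88293592 to 88337787 (- strand).

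CTSL, a cysteine endopeptidase, and TPP1, a serine protease that removes tripeptides, fell by little. CTSL stood at 100.4, 104 and 94.9 CPM in LV-NC against 86.8, 90.6 and 87.6 CPM in MUCP1-FLAG. Groups did not overlap, and CTSL fell 1.13-fold (log2 fold change −0.17 ± 0.05, edgeR adjusted p 0.0309). TPP1 stood at 250.4, 242 and 239 CPM in LV-NC against 229, 217 and 215 CPM in MUCP1-FLAG, again with no overlap, and fell 1.11-fold (−0.15 ± 0.05, edgeR adjusted p 0.0318). Both calls depended on single libraries, and that of TPP1 also on the tool. CTSL lost its call without LV-NC library 2 (edgeR adjusted p 0.190) or without MUCP1-FLAG library 1 (0.101), 2 (0.0627) or 3 (0.120), and over all 14 alternatives its adjusted p ran from 0.00414 to 0.19. TPP1 lost it without LV-NC library 1 (0.0536) or 2 (0.108) or MUCP1-FLAG library 2 (0.129) or 3 (0.169) and in limma on FPKM (0.0522 and 0.0510), with a range of 0.00879 to 0.169. CTSL lies at chromosome 9, 87725519 to 87731393 (+ strand) and TPP1 at chromosome 11, 6612763 to 6619485 (- strand), where 11.6% of its exonic bases are shared with AC091564.7.

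CTSB and CTSD, with CTSZ the hydrolases of highest level per length (368, 204 and 218 FPKM in the mean of 6 libraries), did not pass. CTSB, a cysteine protease, stood at 812, 788 and 754 CPM in LV-NC against 737, 754 and 741 CPM in MUCP1-FLAG. All 3 MUCP1-FLAG values were under the lowest LV-NC value, the highest by a narrow margin, and the log2 fold change was −0.08 ± 0.04 (edgeR adjusted p 0.255). CTSD, the main aspartic protease, stood at 437, 397 and 369.6 CPM in LV-NC against 419, 415 and 423 CPM in MUCP1-FLAG, with overlapping groups and 0.06 ± 0.05 (0.46). It passed the test without LV-NC library 1, at 0.0461. Of its exonic bases 41.7% also belong to AC068580.4, and how the authors' counting treated strand is not known here. CTSA, which protects NEU1 and GLB1 in a complex, had 0.08 ± 0.05 and the aminopeptidase CTSH −0.09 ± 0.12 (edgeR adjusted p 0.257 and 0.651). CTSA shares 17.7% of its exonic bases with NEURL2 on the opposite strand.

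HEXA and NEU1 were the glycosidases that rose. HEXA, the alpha chain of the hexosaminidase that degrades GM2 ganglioside, stood at 80.3, 84.1 and 81.5 CPM in LV-NC against 95.9, 93.7 and 94.1 CPM in MUCP1-FLAG. The groups did not overlap, and HEXA rose 1.15-fold, with 0.21 ± 0.05 (edgeR adjusted p 0.00857). HEXA lies at chromosome 15, 72340919 to 72376476 (- strand). Some 10.1% of its exonic bases are shared with the antisense gene AC009690.2. NEU1, the lysosomal sialidase, stood at 50.3, 46.3 and 42.7 CPM in LV-NC against 52.8, 52.2 and 54.5 CPM in MUCP1-FLAG. Its lowest MUCP1-FLAG value was above its highest LV-NC value by a small margin, and the log2 fold change was 0.19 ± 0.07 (1.14-fold, edgeR adjusted p 0.0486). NEU1 lies at chromosome 6, 31857659 to 31862906 (- strand). NEU1 lay just inside the threshold and was called in 3 of 14 alternatives, with adjusted p from 0.00703 to 0.184. It lost the call without LV-NC library 2 or 3 or without any 1 of the MUCP1-FLAG libraries, at 0.0990 to 0.184.

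The other glycosidases did not pass: GAA, which degrades glycogen (−0.14 ± 0.07, edgeR adjusted p 0.173), GLA, an alpha-galactosidase (0.14 ± 0.07, 0.156), GLB1, a beta-galactosidase (0.03 ± 0.05, 0.795), and GUSB, a beta-glucuronidase (0.01 ± 0.06, 0.934). PSAP, the precursor of the saposins that present sphingolipids to their enzymes, had groups that did not overlap but did not pass (0.10 ± 0.04, 0.149). GAA passed without LV-NC library 3 (0.0179), and PSAP without LV-NC library 1 (0.0264).

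**Figure D2:**
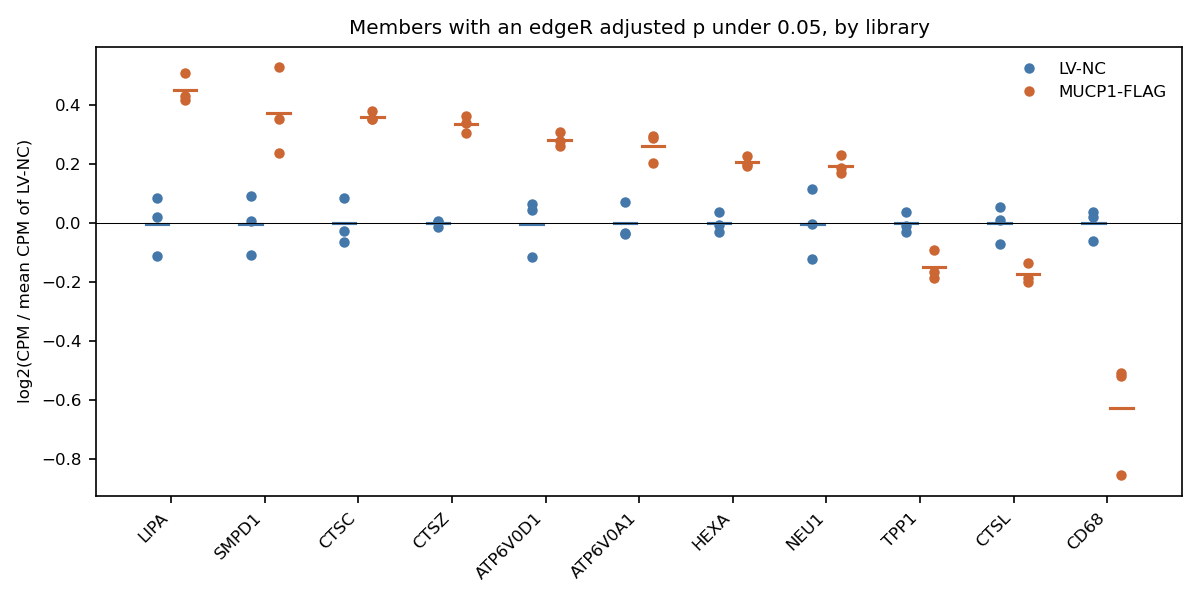
Log2 ratio of CPM to the LV-NC mean (y axis) for the 11 called genes (x axis), with 1 point per library and a short line at each group's mean. In all 11 genes the 3 points of one group lie apart from the 3 of the other. The gap is widest in CD68, which fell, wide in LIPA and CTSZ, and narrow in NEU1.

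Of the 26 rows of the proton pump 22 were tested and 2 passed, both higher (9.09%, near the 8.35% of all tested genes). The median log2 fold change was 0.05, and the median of the absolute values was 0.10, beside 0.11 for all tested genes and 0.14 for the hydrolases. Groups did not overlap in 6 of 22 rows (27.3%, against 33.1% of all tested genes), in each case with MUCP1-FLAG higher. No pump row was lower at an adjusted p under 0.05 by edgeR, DESeq2 or limma, and at an unadjusted p under 0.05 the counts were 0, 0 and 1. The pump median minus the hydrolase median was −0.03, a difference for which no test was run. The same difference was also taken in each library, from log2 CPM set against the LV-NC mean of each gene. Its pooled SD within groups was 0.0391. The difference in log2 fold change was −0.08 without LV-NC library 1 and 0.01 without LV-NC library 2. The 2 rises became 4 without LV-NC library 1, and 1 without LV-NC library 2 or MUCP1-FLAG library 1 or 2.

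In V1, none of the 12 tested rows passed by edgeR, DESeq2 or limma. By edgeR 8.35% of all tested genes were higher and 7.71% lower, and with so few rows a count of 0 does not set V1 apart. At an unadjusted p under 0.05, 1 row passed by each of the 3 tools: ATP6V1D, higher, by edgeR and DESeq2, and ATP6V1C2, lower, by limma. The 8 V1 subunit genes with a mean of at least 10 CPM had log2 fold changes of −0.00 to 0.11, and all their 95% intervals lay between −0.11 and 0.21. The catalytic subunit A (ATP6V1A, 0.01 ± 0.05) and the non-catalytic nucleotide-binding subunit B (ATP6V1B2, 0.01 ± 0.04) were among them. So were the stator subunits E (ATP6V1E1, −0.00 ± 0.05), G (ATP6V1G1, 0.00 ± 0.05), C (ATP6V1C1, 0.05 ± 0.06) and H (ATP6V1H, 0.02 ± 0.06). Values this close to 0 have no firm sign, and with upper quartile scaling those of ATP6V1A, ATP6V1B2 and ATP6V1G1 were under 0. ATP6V1D, part of the central rotor, stood at 129, 134 and 132 CPM in LV-NC against 138, 143 and 143 CPM in MUCP1-FLAG, with groups that did not overlap and 0.11 ± 0.05 (edgeR adjusted p 0.149). ATP6V1F, also of the rotor, had the highest level of the pump, with 142, 145 and 130.0 FPKM in LV-NC against 135, 148 and 144 FPKM in MUCP1-FLAG. FPKM is a count scaled for gene length and library size, as deposited. The 3 values of each group overlapped widely, at 0.05 ± 0.06 on the log2 scale (edgeR adjusted p 0.606).

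In V0, 2 of 8 tested rows were higher (25%, beside 8.35% of all tested genes), and the median was 0.14. With so few rows this count does not set V0 apart either. Among genes with a mean of at least 10 CPM the median was 0.10 in V0 and 0.02 in V1. ATP6V0D1, the d subunit that couples the rotor of V1 to the membrane ring, stood at 68.2, 67.2 and 60.1 CPM in LV-NC against 78.0, 78.9 and 80.6 CPM in MUCP1-FLAG. All MUCP1-FLAG libraries were above all LV-NC libraries, of which the third was the lowest. The mean rose from 65.2 ± 4.40 to 79.2 ± 1.31 CPM (SD, n = 3 per group), 1.22-fold, with 0.28 ± 0.06 (95% interval 0.16 to 0.40, edgeR adjusted p 0.00211). ATP6V0D1 (ENSG00000159720) lies at chromosome 16, 67438014 to 67481237 (- strand). ATP6V0A1, an isoform of the a subunit, along which protons enter and leave the ring, stood at 24.7, 23.0 and 22.9 CPM in LV-NC against 28.8, 28.9 and 27.1 CPM in MUCP1-FLAG. Its groups did not overlap, and it rose 1.20-fold (0.26 ± 0.07, edgeR adjusted p 0.0184). ATP6V0A1 lies at chromosome 17, 42458844 to 42522611 (+ strand). It lost the call without LV-NC library 2 (0.0928) or MUCP1-FLAG library 1 (0.0698) or 2 (0.0824) and in limma on FPKM (0.159 and 0.160), within a range of 0.00985 to 0.16 over 14 alternatives.

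ATP6V0C, the c subunit of which the proton-carrying ring is mainly built, was the V0 gene of highest level, with 114, 111 and 106 FPKM in LV-NC against 114, 121 and 115 FPKM in MUCP1-FLAG. The groups overlapped, and the log2 fold change was 0.08 ± 0.06 (edgeR adjusted p 0.421). It shares 57.5% of its exonic bases with AC093525.2, so its reads cannot be assigned with certainty. The ring subunit ATP6V0B had 0.06 ± 0.06 and the small e subunits ATP6V0E1 and ATP6V0E2 had 0.10 ± 0.06 and 0.19 ± 0.07. ATP6V0E2 lay just outside the threshold (edgeR adjusted p 0.0564), as did ATP6AP1 (0.16 ± 0.06, 0.0542), an accessory protein of pump assembly. Without LV-NC library 1 both passed (0.00551 and 0.00843), as they did with no filter on low counts (0.0371 and 0.0405), and over 14 alternatives their adjusted p ran from 0.00551 to 0.256 and from 0.00843 to 0.22. ATP6AP2, the prorenin receptor, which also assists pump assembly, had 0.11 ± 0.05 (0.13). In CPM the MUCP1-FLAG values of both accessory genes were all above the LV-NC values. In deposited FPKM this held for ATP6AP1 alone. ATP6AP2 overlapped there, at 79.2, 68.2 and 76.2 FPKM in LV-NC against 75.1, 72.4 and 76.3 FPKM in MUCP1-FLAG.

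The 4 pump rows that did not reach the filter were ATP6V0D2, ATP6V1B1, ATP6V1G2 and ATP6V1G3, isoforms best known from tissues such as kidney, bone and brain. ATP6V1G3 was at 0 in every library. A further 5 rows were tested at a mean under 10 CPM (ATP6V1C2, ATP6V1E2, ATP6V0A4, ATP6V1FNB and ATP6V1G2-DDX39B), and none passed, with log2 fold changes of −0.37 to 0.29 and standard errors of 0.18 to 0.29. The last 2 of these carry the name of a pump gene without being subunits. ATP6V1FNB is a neighbour of ATP6V1F, and ATP6V1G2-DDX39B is a readthrough whose exonic bases overlap DDX39B by 87.6%. Without them the pump had the same 2 rises.

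**Figure D3:**
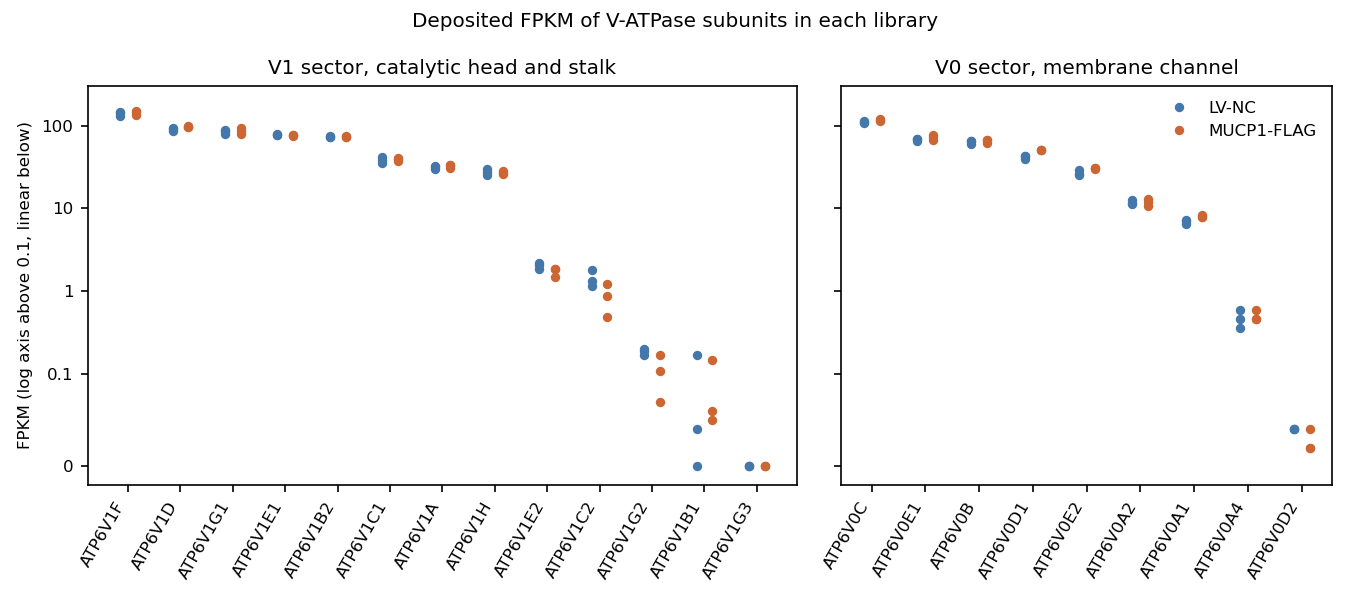
Deposited FPKM of the V1 and V0 subunit genes in each library, V1 on the left and V0 on the right, on an axis that is logarithmic above 0.1 FPKM and linear under it. ATP6V1F and ATP6V0C stand highest at 141 and 114 FPKM in the mean, and ATP6V0D2, ATP6V1B1 and ATP6V1G3 lie at or near 0.

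Per length, each subunit with several isoforms was made up mostly of 1 in these cells, apart from a and e. ATP6V0D1 took at least 99.9% of the FPKM of the d isoforms in every library. ATP6V1B2 took 99.8% to 100% of B, ATP6V1G1 99.8% to 99.9% of G, ATP6V1E1 97.2% to 98.1% of E, and ATP6V1C1 95.0% to 98.8% of C. The e subunit was divided, with 68.8% to 72.5% from ATP6V0E1 and the rest from ATP6V0E2. The a subunit was divided among ATP6V0A1, ATP6V0A2 and TCIRG1, the a3 isoform, which the name rule does not take. ATP6V0A1 made up 22.8% ± 0.924 (SD, n = 3) of a in LV-NC and 26.7% ± 2.71 in MUCP1-FLAG, ATP6V0A2 39.1% ± 4.53 and 39.0% ± 1.16, and TCIRG1 36.6% ± 4.16 and 32.6% ± 1.63. TCIRG1 had a log2 fold change of −0.23 ± 0.12 and did not pass (edgeR adjusted p 0.204).

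Summed over its rows, the FPKM of V1 was 566, 574 and 565 in LV-NC against 569.8, 579 and 583 in MUCP1-FLAG, and the groups overlapped. The V0 sum was 339, 329 and 319.6 in LV-NC against 351, 363 and 353 in MUCP1-FLAG. These did not overlap, with a mean of 329 ± 9.70 rising to 355 ± 6.40 (SD, n = 3 per group), a ratio of 1.08, for which no test was run. The hydrolase sum was 1433, 1367 and 1339 in LV-NC against 1439, 1425 and 1445 in MUCP1-FLAG. The first LV-NC library lay within the MUCP1-FLAG range and the other 2 lay under it.

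**Figure D4:**
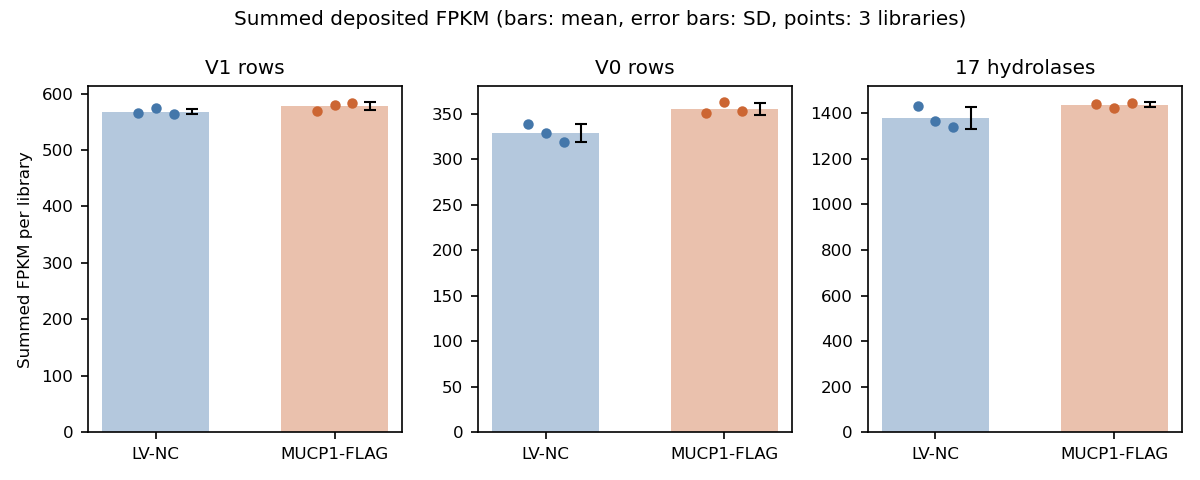
Summed deposited FPKM of the V1 rows, the V0 rows and the 17 hydrolases by group, with bars at the mean, error bars of 1 SD and a point for each library. The V0 sums of the groups lie apart (329 and 355 in the mean), and those of V1 and of the hydrolases overlap.

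Of the 8 membrane proteins and TFEB factors, all tested, none was higher and 1 was lower (12.5%). Among all tested genes 8.35% were higher and 7.71% lower, and with so few genes these counts do not set the list apart. For the rises, edgeR and DESeq2 each had 1 gene at an unadjusted p under 0.05 and limma had 0. The fall was CD68, a heavily glycosylated protein of the LAMP family that is widely used as a macrophage marker. It stood at 12.1, 12.8 and 12.9 CPM in LV-NC against 8.87, 8.79 and 6.97 CPM in MUCP1-FLAG, with no overlap and the third MUCP1-FLAG library lowest. The mean fell from 12.6 ± 0.447 to 8.21 ± 1.07 CPM (SD, n = 3 per group), 1.53-fold, with −0.62 ± 0.11 (95% interval −0.85 to −0.38, edgeR adjusted p 0.000554). The sums of the 13 macrophage and blood markers overlapped between the groups (0.942 to 1.51 and 0.923 to 1.61 CPM), and PTPRC and TYROBP were at 0 in all libraries. CD68 (ENSG00000129226) lies at chromosome 17, 7579467 to 7582113 (+ strand), and 81.7% of its exonic bases also belong to AC016876.2 on the same strand, so its reads cannot be assigned with certainty.

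CD63, a tetraspanin of late endosomes, had the highest level of the 52 genes at 436 FPKM in the mean of all libraries. It had 0.10 ± 0.04 and did not pass (edgeR adjusted p 0.117), except without LV-NC library 1 (0.0486). LAMP1 (−0.05 ± 0.05, 0.512) and LAMP2 (0.10 ± 0.05, 0.172), the abundant glycoproteins of the lysosomal membrane, did not pass either, nor did SCARB2 (−0.08 ± 0.05, 0.361), which carries glucocerebrosidase to the lysosome. LAMP2 passed without LV-NC library 3, at 0.0324. MCOLN1, the calcium channel whose opening activates calcineurin and TFEB, stood at 12.9, 11.4 and 11.6 CPM in LV-NC against 12.2, 11.2 and 12.7 CPM in MUCP1-FLAG. The values of both groups covered the same range (0.01 ± 0.10, 95% interval −0.20 to 0.21, edgeR adjusted p 0.981).

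TFEB transcripts were low and TFE3 transcripts were higher, at 1.86 and 32.2 FPKM in the mean. TFEB stood at 4.90, 5.01 and 3.98 CPM in LV-NC against 4.17, 3.74 and 4.36 CPM in MUCP1-FLAG, with overlapping groups. Its change of −0.18 ± 0.16 on the log2 scale (edgeR adjusted p 0.486) had a 95% interval of −0.52 to 0.15, wider than that of TFE3. TFE3 stood at 107, 104 and 101 CPM in LV-NC against 106, 109 and 110.0 CPM in MUCP1-FLAG, with 0.06 ± 0.05 (95% interval −0.04 to 0.17, edgeR adjusted p 0.459). These are transcript levels; the place of the proteins in the cell was not measured.

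Promoters were looked up for the element of TFEB and TFE3, because these factors are the textbook regulators of the genes described here. RefSeq promoter windows (GRCh38.p14, 250 bases before to 50 after 1 start site per gene) were matched for 39 of the 52 genes. The search took CACGTG and the longer TCACGTGA, which contains it. Both are the same on either strand. CACGTG was in 11 of 39 windows (28.2%), against 7.435% of 27305 windows of the same length. TCACGTGA was in 6 of 39 (15.4%), against 1.036%. The element is known from promoters of lysosomal genes, so a higher share was built into the choice of genes. The 27305 windows were not matched to the 39 for expression or base content. Of the 10 called genes with a window, 2 held CACGTG (NEU1 and ATP6V0D1) and 1 held TCACGTGA, and of the 26 tested genes that were not called, 9 and 5 did. In 5 of the 39 genes the RefSeq start lay more than 300 bases from the nearest start of a principal transcript in GENCODE 29. LIPA is 1 of them, with its window 162621 bases away, so its count as a called gene without a match does not speak to its principal promoter. The same limit holds for ATP6V0E2 (1025 bases) and ATP6V0B (312 bases), which were counted among the uncalled genes with CACGTG.

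The 6 genes whose window held TCACGTGA were ATP6V0D1, ATP6V1G1, MCOLN1, GAA, CTSA and LAMP1, of which ATP6V0D1 alone passed the test. The windows of 4 are shown, chosen after their values were seen, because they set the V0 gene that rose beside a V1 gene, a channel gene and a membrane glycoprotein gene that hold the same letters and did not pass. The sequences are written 5′ to 3′ on the gene's strand, with CACGTG and TCACGTGA in capitals. The windows are chr16:67481108-67481407 (- strand) for ATP6V0D1, chr9:114587519-114587818 (+ strand) for ATP6V1G1, chr19:7522374-7522673 (+ strand) for MCOLN1 and chr13:113296989-113297288 (+ strand) for LAMP1.
ATP6V0D1: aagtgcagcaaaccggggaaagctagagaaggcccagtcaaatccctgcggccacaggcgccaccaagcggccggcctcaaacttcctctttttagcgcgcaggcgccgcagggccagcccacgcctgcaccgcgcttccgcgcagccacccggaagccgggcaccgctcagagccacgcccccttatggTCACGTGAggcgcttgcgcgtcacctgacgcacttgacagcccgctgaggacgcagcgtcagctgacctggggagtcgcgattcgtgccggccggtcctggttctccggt
ATP6V1G1: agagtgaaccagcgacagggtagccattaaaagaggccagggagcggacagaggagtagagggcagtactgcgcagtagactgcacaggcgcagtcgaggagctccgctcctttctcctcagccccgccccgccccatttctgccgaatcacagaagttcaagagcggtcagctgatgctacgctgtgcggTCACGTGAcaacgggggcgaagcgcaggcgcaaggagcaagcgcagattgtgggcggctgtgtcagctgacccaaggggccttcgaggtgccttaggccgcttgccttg
MCOLN1: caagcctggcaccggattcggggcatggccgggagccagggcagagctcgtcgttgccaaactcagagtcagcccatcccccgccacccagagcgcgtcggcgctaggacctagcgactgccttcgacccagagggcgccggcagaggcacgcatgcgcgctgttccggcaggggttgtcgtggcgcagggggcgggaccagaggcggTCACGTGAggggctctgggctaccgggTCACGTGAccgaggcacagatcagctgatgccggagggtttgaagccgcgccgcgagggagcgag
LAMP1: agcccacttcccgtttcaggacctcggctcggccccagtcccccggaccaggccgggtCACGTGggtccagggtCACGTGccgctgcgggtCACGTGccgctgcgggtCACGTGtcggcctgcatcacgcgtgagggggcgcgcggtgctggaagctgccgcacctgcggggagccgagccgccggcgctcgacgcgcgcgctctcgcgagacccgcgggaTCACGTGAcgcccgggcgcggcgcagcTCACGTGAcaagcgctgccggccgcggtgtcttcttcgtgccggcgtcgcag
CACGTG begins 59 bases before the start in ATP6V0D1, 58 bases before it in ATP6V1G1, and 41 and 14 bases before it in MCOLN1. LAMP1 held CACGTG 6 times, 2 of them within TCACGTGA. A match is a string of letters and not a bound site, and binding was not measured. Log2 fold changes of the 4 were 0.28 ± 0.06, 0.00 ± 0.05, 0.01 ± 0.10 and −0.05 ± 0.05, in that order.

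Other genes of the pathway were counted by lists, to be read against the 8.35% higher and 7.71% lower among all tested genes. Of 32 tested further hydrolases and cofactors, 3 were higher (9.38%) and 2 lower (6.25%), near those shares, with a median of 0.00. FUCA1, which removes fucose from glycoproteins, had 0.44 ± 0.06 (edgeR adjusted p 1.05e-05). Of 29 further membrane and cholesterol-handling proteins of the lysosome, 5 were higher (17.2%) and 3 lower (10.3%), with a median of 0.02. NPC2, which hands cholesterol freed by LIPA to the exporter NPC1, rose by 0.46 ± 0.05 (1.05e-06), and SLC17A5, the sialic acid exporter that acts after NEU1, by 0.43 ± 0.06 (6.10e-05).

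Of 11 tested genes for a pump isoform, for pump assembly or for TLDc-domain proteins, 1 passed. This was OXR1, a TLDc-domain protein, which was higher (0.33 ± 0.05, edgeR adjusted p 0.000216). Of 21 genes of nutrient sensing on the lysosome and of TFEB control, 3 passed, all higher, with a median of 0.08. FNIP2, a partner of folliculin, had 0.60 ± 0.07 (7.09e-06), and RHEB, the GTPase that activates mTORC1, had 0.14 ± 0.04 (0.0381). Of 9 sorting genes, SORT1, a sorting receptor, was higher (0.27 ± 0.05, 0.000885) and GNPTAB, which makes the mannose 6-phosphate tag, was lower (−0.22 ± 0.07, 0.0399). Of 12 tested autophagy genes 2 passed, both lower: ATG16L1 (−0.21 ± 0.06, 0.027) and VPS8 (−0.17 ± 0.05, 0.0334).

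**Figure D5:**
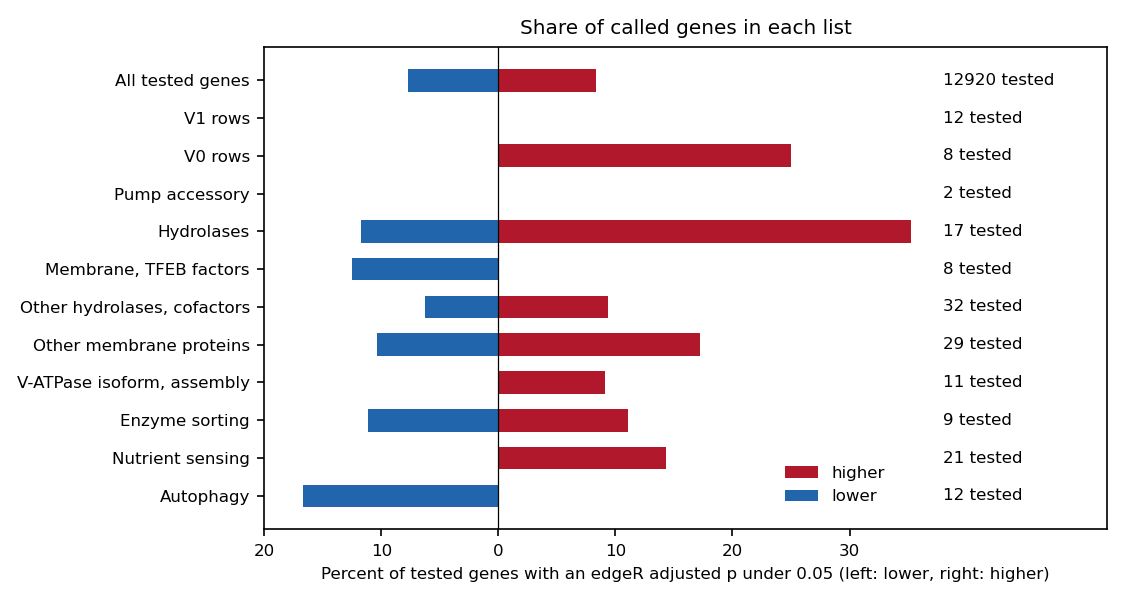
Share of tested genes, in percent, that were higher (red, to the right) or lower (blue, to the left) at an edgeR adjusted p under 0.05 in each list, with all 12920 tested genes at the top. The hydrolases have the longest bar of rises among these lists (35.3%, against 8.35% for all genes), and V1 has no bar. Lists differ in precision, with a median standard error of 0.05 for the hydrolases and 0.08 for all tested genes.

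The authors' deposited table gave its own adjusted p-values for these genes. At 0.05 it had 6 of the 52 higher and 3 lower, and edgeR called all 9 in the same direction. ATP6V0A1 (adjusted p 0.0600 in the authors' deposited table) and NEU1 (0.106 in the authors' deposited table) were the other 2 of the 11 edgeR calls.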

How the data were processed

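Messenger RNA of 6 SW480 libraries, 3 LV-NC and 3 MUCP1-FLAG, was sequenced. For each gene and library the authors deposited a whole-number count and an FPKM value, a count scaled for gene length and library size. They also deposited a log2 fold change, a p-value and an adjusted p-value per gene, by a test whose name the sources do not give. GRCh38, DESeq2, featureCounts, HISAT2 and fastp are listed, with neither version nor role, per the submitters' processing notes. Strand setting and gene length are not given here.

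The deposited counts of all genes were tested with edgeR 4.0.16 (quasi-likelihood F test, robust, TMM scaling, group as the only term) in R 4.3.3, after filterByExpr with a minimum count of 10, which left 12920 genes. Rows without a symbol (583) were kept. P-values were adjusted over these genes by Benjamini-Hochberg, with a threshold of 0.05. Standard errors were derived from the F statistic, and intervals are at 95%. Alternatives were DESeq2 size factors, upper quartile scaling, no filter, at least 50 counts in at least 3 libraries, DESeq2 1.42.0, limma 3.58.1 on log2(FPKM + 1) and log2(FPKM + 0.1), a replicate block and each library left out. The script was tested on simulated data. Counts of each pair of libraries within a group differed by more than sampling noise (chi-square per degree of freedom 2.57 to 8.26). The members and the lists were chosen with earlier results of these data known, so lists are described by counts and medians and were not tested.

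All members are accounted for. Values in every library are given for genes with an adjusted p under 0.05, for TFEB, TFE3 and MCOLN1, and for the 3 tested pump genes and 3 hydrolases of highest mean FPKM. From each further list the 2 called genes with the smallest adjusted p are named, apart from 1 gene that is not reported here. A comparison of protein sequences between subunit paralogues was planned and was not done here.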

Additional observations from a re-analysis of the deposited data

How the results depend on the processing

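Of the 11 called genes, 7 (LIPA, CTSZ, CTSC, SMPD1, HEXA, CD68 and ATP6V0D1) kept their call in all 14 alternatives, while NEU1, CTSL, TPP1 and ATP6V0A1 lost it in some, and 8 uncalled genes gained one in at least 1. Over 670 values of single genes in the alternatives, 597 stayed on their side of the threshold with the same sign, 10 gained and 26 lost the call, and 37 changed sign. The 37 are in 10 genes, and none passed the threshold before or after. The cause of these changes was not tested. The genes that lost the call had log2 fold changes of 0.19 (NEU1), −0.17 (CTSL), −0.15 (TPP1) and 0.26 (ATP6V0A1), while HEXA kept it at 0.21. How small a change 3 libraries per group can resolve was not determined here.

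The replicate numbers showed no clear pairing of the samples. Same-numbered libraries had correlations of −0.0172, 0.0730 and 0.00838, and libraries of different number −0.0512 to 0.0395. With 3 libraries per group these values cannot exclude a pairing. With the replicate block, edgeR called 1005 genes higher and 954 lower, and among the genes described here NEU1 alone changed its call (adjusted p 0.0581, range 0.00703 to 0.184 over all alternatives).

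Over all genes, limma on FPKM called 514 (pseudocount 1) and 516 (pseudocount 0.1) higher and 544 and 549 lower, against 1079 and 996. Leaving out 1 library gave 639 to 1323 higher and 624 to 1213 lower, with the lowest counts without MUCP1-FLAG library 3, and 671 higher without LV-NC library 2. Rises in the pump numbered 4 without a filter, 1 and 1 in limma and 1 to 4 with a library left out. Falls among the hydrolases numbered 1 and 1 in limma and 0 to 3 with a library left out, and rises among membrane proteins and TFEB factors 0 to 1. The pump median minus the hydrolase median was −0.07705 to 0.005342 with a library left out. Counting PSAP as a hydrolase, TCIRG1 as a pump gene, or leaving out ATP6V1FNB and ATP6V1G2-DDX39B (the last chosen after seeing the data, as was a minimum of 10 CPM) moved no count by over 1.5 times.

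Signs changed as follows, in log2 fold change. With upper quartile scaling ATP6V1A had −0.001281, ATP6V1B2 −0.002761, ATP6V1G1 −0.01489, GUSB −0.00464 and MCOLN1 −0.01023. With limma at pseudocounts 1 and 0.1, ATP6V1B2 had −0.000381 and −0.0003856, ATP6V1H −0.03537 and −0.03647, GUSB −0.0003785 and −0.0003561, and MCOLN1 −0.02405 and −0.02775. ATP6V1G1 had −0.0002997 with DESeq2 size factors, −0.006357 with the stricter filter and −0.0003127 with the replicate block. MCOLN1 had −0.00164 with the stricter filter and ATP6V1E1 0.0006858 with none. With a library left out, ATP6V0A2 ran from −0.1008 to 0.01535, ATP6V1A from −0.01073 to 0.03839, ATP6V1B2 from −0.000958 to 0.02799, ATP6V1C1 from −0.007297 to 0.1067 and ATP6V1E1 from −0.02112 to 0.01142. In the same runs ATP6V1G1 ran from −0.03254 to 0.02506, ATP6V1H from −0.01206 to 0.06935, GLB1 from −0.008935 to 0.06316, GUSB from −0.04166 to 0.05369 and MCOLN1 from −0.0362 to 0.06304.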
